A study of Mus musculus with 6 samples.

Results

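The miR-26 family was followed as 2 probes of a mouse miRNA panel, mmu-miR-26a and mmu-miR-26b, out of 566 mouse miRNA probes in the table. Members were picked by probe name, and the family was picked for description with earlier results of these samples known, the contrast of EE with placebo among them. The panel values of both members by treatment group are therefore given as descriptions, without p-values. The panel held 0 probes for the opposite (3′) arms of the miR-26 precursors.

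Splenocytes came from female NZB/WF1 mice, a hybrid that develops a spontaneous lupus-like disease. At 6 to 7 weeks of age the mice received implants of 17α-ethinyl estradiol (EE, a synthetic estrogen used in contraceptive pills), of 17β-estradiol (E2, the estrogen made by the ovary) or without hormone (placebo), which they kept for 9 weeks. Every group, placebo included, was thus on the same lupus-prone background, and there were 2 samples a group, 6 in all. Nothing in the labels says that samples of 1 group are separate mice, so errors and p-values reflect only how far these samples differ, which may be technical. No implant dose is stated.

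miR-26a and miR-26b are made from precursors that lie in introns of the CTD small phosphatase genes, a family of repressors of neuronal genes in non-neuronal cells and of cell cycle entry. Both are best known as growth-restraining miRNAs: they repress Ezh2, a Polycomb histone methyltransferase, and MYC lowers both in lymphoma cells. In human breast cancer cells estradiol has been reported to lower miR-26, with MYC in the path.

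The mature sequences, from RefSeq with build GRCm38.p6, are shown because both members carry the same seed, the stretch that pairs with target mRNAs. Capitals mark the seed, bases 2 to 8 from the 5′ end.
miR-26a: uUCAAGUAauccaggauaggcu
miR-26b: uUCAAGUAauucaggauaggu
Of 1679 mature mouse miRNA names in the RefSeq table, these 2 alone carried this seed. Aligned from the 5′ end without gaps, miR-26a (22 bases) and miR-26b (21 bases) were identical at 19 of 21 positions. The changes from miR-26a to miR-26b, counted from the 5′ end, were C11U and C21U, both outside the seed, and miR-26a had 1 base more at its 3′ end.

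The precursors show why the panel sees 3 genes through 2 probes. Capitals mark the mature miRNA within each hairpin.
Mir26a-1: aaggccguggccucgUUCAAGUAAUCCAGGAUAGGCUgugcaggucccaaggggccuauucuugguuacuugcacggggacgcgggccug
Mir26a-2: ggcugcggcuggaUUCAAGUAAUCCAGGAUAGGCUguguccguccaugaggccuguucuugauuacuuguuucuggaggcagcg
Mir26b: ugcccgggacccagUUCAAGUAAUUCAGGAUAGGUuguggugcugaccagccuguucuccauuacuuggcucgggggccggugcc
Mir26a-1 lies at chr9:119031796-119031885 within Ctdspl, Mir26a-2 at chr10:126995530-126995613 within Ctdsp2, and Mir26b at chr1:74394310-74394394 within Ctdsp1, each on the plus strand of GRCm38.p6. Mir26a-1 and Mir26a-2 give the same mature sequence, so the miR-26a probe cannot tell their products apart. The mature miR-26b sequence comes from a single gene, and whether its probe also binds miR-26a was not tested.

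Values are normalized counts of the nCounter assay, which counts colour-coded barcodes bound to single molecules without amplification. Summed normalized counts over all probes ran from 167152 to 205209 per sample; they follow the authors' scaling, and the raw depth is unknown. The detection floor used here, 2 SD above the mean of 8 negative control probes in all samples, was 53.3 normalized counts, and 95 mouse miRNAs had a mean above it. The probe for miR-150, the leading lymphocyte miRNA, took between 12.7% and 29.2% of all mouse miRNA counts, the most of any miRNA.

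miR-26b was the better measured member. It stood at 447 and 466 normalized counts with EE, at 581 and 482 with E2, and at 621 and 715 with placebo. Both EE samples were the lowest of the 6, both placebo samples were the highest, and the groups did not overlap. This order was not particular to miR-26b, as miR-150, miR-181a, miR-342-3p and miR-23a, among others, had it too. Of the 95 miRNAs above the floor, EE samples lay below placebo samples for 36.8%. E2 samples lay below placebo samples for 45.3%, and EE samples below E2 samples for 30.5%. The lowest miR-26b value, in EE sample 1, was still 7.58 times the highest negative control probe of that sample. miR-26b ranked between 29 and 36 among the 566 mouse miRNAs of a sample. Group means were 456.5 ± 13.4 with EE, 531.5 ± 70.0 with E2 and 668 ± 66.5 with placebo (SD, n = 2 each). Its pooled SD within groups was 0.14 log2 units, against a median of 0.17 over the 95 miRNAs above the floor.

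miR-26a was read close to background. It stood at 61 and 72 normalized counts with EE, at 61 and 77 with E2, and at 61 and 89 with placebo. Each group had a sample at 61, and the 3 groups overlapped. The highest negative control probe, NEG_C, read 59 and 56 with EE, 48 and 50 with E2, and 58 and 43 with placebo. miR-26a exceeded it in all 6 samples, but by 2 normalized counts in EE sample 1 and by 3 in placebo sample 1. With a floor set within each sample, the distance of miR-26a from the floor was 0.00887 normalized counts in EE sample 1 and -4.76 in placebo sample 1, and it was above the floor in the other samples. Its mean over all samples, 70.2 normalized counts, ranked 81 among the 95. The pooled SD within groups was 0.28 log2 units, wider than that of miR-26b, and the placebo samples alone differed by 0.54. How well each probe captures its miRNA is not known here, so the higher counts of miR-26b do not show that it is the more abundant member.

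**Figure D1:**
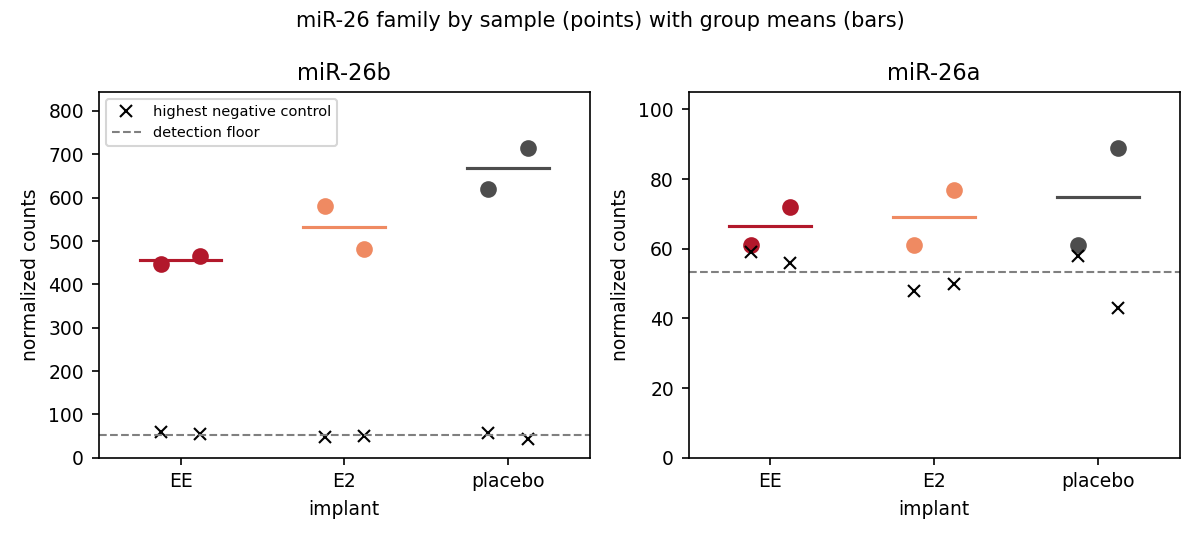
Normalized counts of miR-26b (left) and miR-26a (right) by implant, with a point per sample (n = 2 per group), a bar for the group mean, a cross for the highest negative control probe of the same sample and a dashed line for the detection floor of 53.3. The miR-26b points fall into separate ranges for EE, E2 and placebo, while the miR-26a points overlap and in EE sample 1 and placebo sample 1 lie within 3 normalized counts of a negative control.

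The contrast of EE with placebo addresses the response to the synthetic estrogen. miR-26b was lower with EE, with a log2 fold change of -0.545 ± 0.18 (SE), or 1.46-fold lower. In limma's moderated test over 95 miRNAs, adjusted by the Benjamini-Hochberg method at a threshold of 0.05, 26.3% of the miRNAs were called and 15.8% were called lower. miR-26b was 1 of the 15 lower calls and miR-26a was not called, so 1 of 2 members was. This contrast was known when the family was chosen, so the call is a description. It was lost in 14 of 20 other settings, among them every rescaling tried. Both EE samples lay below both placebo samples for miR-26b, as they did for 36.8% of the 95 miRNAs. Its log2 fold change was the 16th from the lowest of 95. The log2 fold change of miR-26a was -0.15 ± 0.25 (SE), the 43rd from the lowest and near the median of -0.11 over all 95. Without placebo sample 2 that of miR-26a was 0.12.

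In a bulk sample of splenocytes, fewer cells that hold a miRNA and less of it per cell cannot be told apart. The marker lists moved between the groups. The 3 lymphoid markers, miR-150, miR-181a and miR-342-3p, summed to between 17116 and 18297 normalized counts with EE and between 41000 and 50761 with placebo, and 3 of 3 fell. The 3 erythroid markers, miR-144, miR-451 and miR-486, summed to between 7187 and 7933 with EE and between 596 and 1393 with placebo, and 3 of 3 rose. The 4 myeloid markers, miR-223, miR-23a, miR-27a and miR-24, summed to between 2993 and 3017 with EE and between 2205 and 2743 with placebo, with miR-223 higher and miR-23a lower. miR-27a (log2 fold change -0.33) and miR-24 (0.15) were not called. The 3 stromal markers, miR-143, miR-145 and miR-125b-5p, summed to between 230 and 249 with EE and between 176 and 177 with placebo, with miR-145 higher. The endothelial marker miR-126-3p read 154 and 180 with EE, against 78 and 80 with placebo, and rose. Of these calls those of the erythroid and lymphoid markers held in at least 19 of 20 other settings, that of miR-223 in 17, of miR-23a in 12, of miR-126-3p in 19 and of miR-145 in 9 of 19. No marker was at 0 in any sample, but some were under the floor of 53.3. miR-143 was so in every sample, at 25 and 30 with EE and 17 and 31 with placebo. miR-144 was so in placebo sample 2, at 45. The part of these cell types in the miR-26b values was not tested.

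The contrast of E2 with placebo addresses the natural hormone. miR-26b had a log2 fold change of -0.33 ± 0.18 (SE), or 1.26-fold lower, and miR-26a of -0.10 ± 0.25 (SE). Of the 95 miRNAs 10.5% were called, and 0 of 2 members were among them (limma, with 20 of the 95 at an unadjusted p under 0.05). Both E2 samples of miR-26b lay below both placebo samples, as they did for 45.3% of the 95 miRNAs. The median log2 fold change of the 95 was -0.20, so miR-26b lay 0.13 log2 units below the median and miR-26a 0.10 above it. The lymphoid markers summed to between 26756 and 28589 with E2 and between 41000 and 50761 with placebo, and 3 of 3 fell. The erythroid markers summed to between 4376 and 5230 with E2 and between 596 and 1393 with placebo, and 3 of 3 rose. The myeloid markers summed to between 4371 and 4738 with E2 and between 2205 and 2743 with placebo, with miR-223 higher. The other 3 had log2 fold changes below 0 and were not called: miR-23a (-0.36), miR-24 (-0.24) and miR-27a (-0.030). The stromal markers summed to between 104 and 121 with E2 and between 176 and 177 with placebo, with miR-125b-5p lower. With E2, miR-125b-5p read 30 and 45, under the floor and under the highest negative control, against 75 and 71 with placebo. miR-126-3p read 103 and 88 with E2, against 78 and 80 with placebo, and was not called. The erythroid calls held in at least 19 of 20 other settings and that of miR-223 in 20, those of miR-150 and miR-181a in 16, that of miR-342-3p in 6 and that of miR-125b-5p in 10 of 19. The part of these cell types in the miR-26b values was not tested. This contrast and that of EE share the same 2 placebo samples.

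The contrast of EE with E2 set the estrogen with an ethinyl group at the 17α position beside the one without it. Since doses are not given, the values stand side by side and a matched dose cannot be stated. miR-26b was at 447 and 466 normalized counts with EE and at 581 and 482 with E2, which do not overlap, with E2 sample 2 closer to the EE samples than to E2 sample 1. The log2 fold change of EE over E2 was -0.21 ± 0.18 (SE) for miR-26b and -0.048 ± 0.25 (SE) for miR-26a. Of the 95 miRNAs 7.37% were called, and 0 of 2 members were among them (limma, with 18 of the 95 at an unadjusted p under 0.05). EE samples lay below E2 samples for 30.5% of the 95. The lymphoid markers summed to between 17116 and 18297 normalized counts with EE and between 26756 and 28589 with E2. Of these, 2 of 3, miR-150 and miR-181a, were called lower, and miR-342-3p, at a log2 fold change of -0.40, was not called. The erythroid markers summed to between 7187 and 7933 with EE and between 4376 and 5230 with E2, and 0 of 3 were called. The myeloid markers summed to between 2993 and 3017 with EE and between 4371 and 4738 with E2, with 1 of 4, miR-223, lower. The stromal markers summed to between 230 and 249 with EE and between 104 and 121 with E2, with both tested members, miR-145 and miR-125b-5p, higher, and miR-126-3p, at 154 and 180 with EE and 103 and 88 with E2, was higher too. These calls held in 10 to 12 of 20 other settings for miR-150, miR-181a, miR-223 and miR-126-3p, in 14 of 19 for miR-145 and in 15 of 19 for miR-125b-5p. The E2 values of miR-125b-5p, 30 and 45, were under the floor. The part of these cell types in the miR-26b values was not tested. The difference of miR-26b was of the size of its standard error, and these samples do not show whether the compounds differ or act alike on it.

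**Figure D2:**
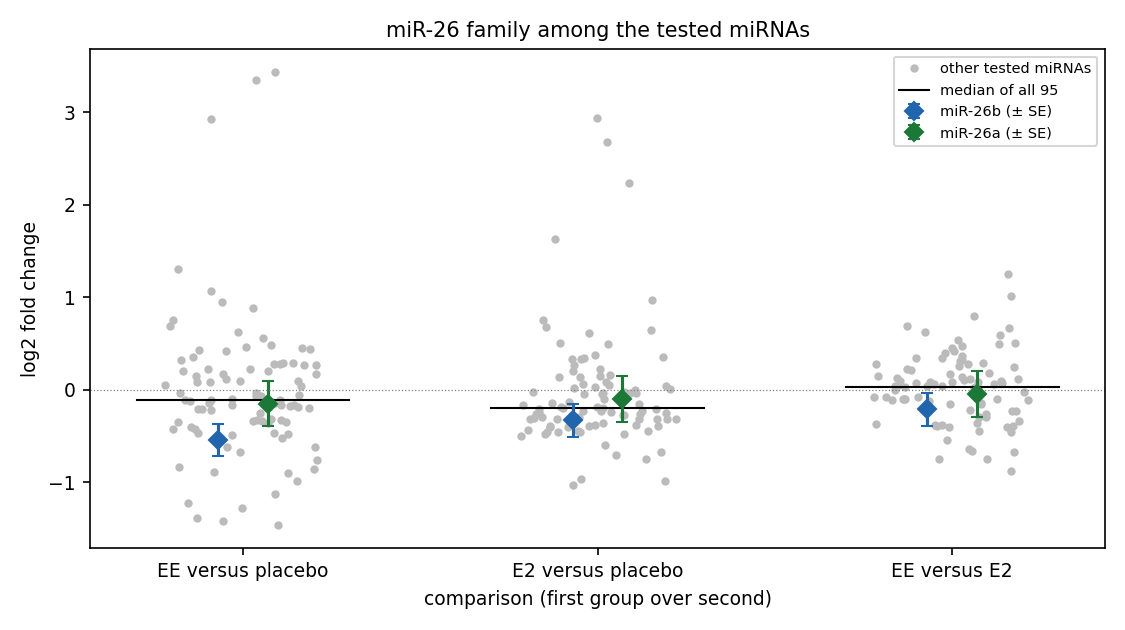
Log2 fold change (vertical axis, first group over second) of the 95 tested miRNAs in 3 contrasts, with miR-26b and miR-26a as diamonds with their SE, the other miRNAs as grey points and the median of all 95 as a black bar. miR-26b lies below the median in each contrast, by 0.43 log2 units for EE with placebo, and miR-26a lies within 0.10 of it.

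The fold changes of miR-26b depended on what each sample was scaled to. As a share of all mouse miRNA counts, miR-26b made up 0.394% and 0.418% with EE, 0.449% and 0.399% with E2, and 0.411% and 0.514% with placebo. On this scale the groups overlapped. The total includes miR-150, which took 13.5% and 12.7% of it with EE, 18.7% and 18.8% with E2, and 29.2% and 25.2% with placebo. With miR-150 left out of the total, a choice made after seeing the values, miR-26b made up 0.455% and 0.478% with EE, 0.552% and 0.491% with E2, and 0.580% and 0.687% with placebo. On that scale the EE, E2 and placebo samples again fell into separate ranges.

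Control probes on the panel also differed between samples. The geometric mean of the 3 positive ligation controls was 2403 and 3208 normalized counts with EE, 1840 and 2027 with E2, and 2119 and 2739 with placebo. That of the 4 housekeeping mRNAs (Actb, B2m, Gapdh and Rpl19) was 1333 and 1045 with EE, 1401 and 1529 with E2, and 1467 and 1100 with placebo. EE and placebo overlapped in both. E2 lay below EE and placebo in the ligation controls, and above EE in the mRNAs. With each sample scaled to these controls, the log2 fold change of miR-26b for EE over E2 was -0.74 with the ligation controls and 0.097 with the mRNAs, the widest spread between them of the 3 contrasts. These scalings moved all miRNAs together. For EE over placebo, E2 over placebo and EE over E2 in turn, the median of the 95 shifted by -0.20, 0.32 and -0.52 log2 units with ligation controls, by 0.11, -0.20 and 0.31 with housekeeping mRNAs, and by 0.36, 0.21 and 0.15 with all mouse miRNA counts. It shifted by 0.11 with median rescaling for E2 over placebo and without miR-150 in the total for EE over placebo.

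Ratios of 2 probes within a sample do not depend on the scaling. Per 1000 counts of miR-150 there were 29.3 and 33.0 counts of miR-26b with EE, 24.0 and 21.3 with E2, and 14.1 and 20.4 with placebo. This ratio was highest with EE and lowest with placebo, with no overlap, so miR-26b was lower by a smaller factor than miR-150. miR-150 itself had the 2nd lowest log2 fold change of the 95 for EE over placebo, and the 4th lowest in the other contrasts. A rise against it is thus not particular to miR-26b. The ratio of miR-26b to miR-26a was 7.33 and 6.47 with EE, 9.52 and 6.26 with E2, and 10.2 and 8.03 with placebo. The miR-26a counts in this ratio include background, which differed between samples. With the negative control mean of each sample subtracted from both probes, the ratio was 11.8 and 9.17 with EE, 13.2 and 8.17 with E2, and 17.6 and 10.04 with placebo, and the groups overlapped. Relative to the median tested miRNA of the same contrast, a difference that plain rescaling leaves nearly untouched, miR-26b lay 0.43 log2 units lower with EE than with placebo. The variance model and the E2 samples cannot change this difference either. Among the settings that could, it ran from -0.585 with quantile normalization to -0.365 without placebo sample 2.

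**Figure D3:**
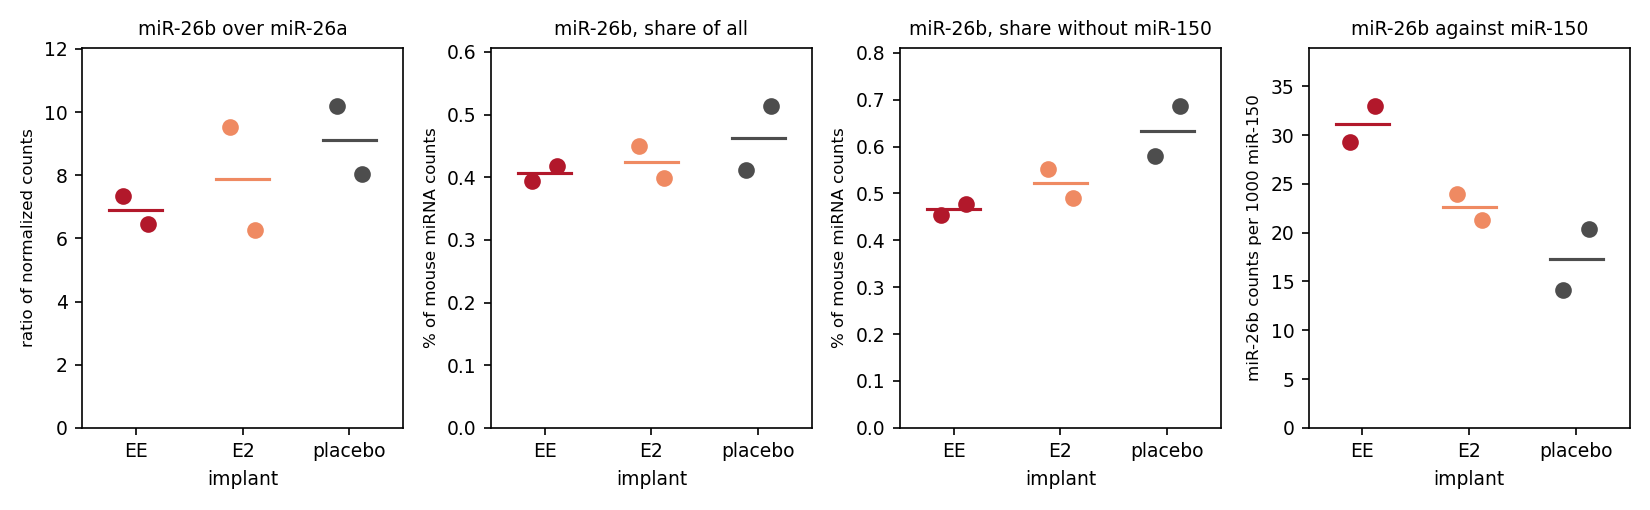
Scale-free readings by implant, with a point per sample (n = 2 per group) and a bar for the mean: miR-26b over miR-26a, miR-26b as a percentage of all mouse miRNA counts, the same without miR-150, and miR-26b counts per 1000 miR-150 counts. The share of all counts overlaps between groups, the share without miR-150 runs lowest in EE and highest in placebo, and the ratio to miR-150 runs the opposite way. miR-150 itself had the 2nd lowest log2 fold change of the 95 for EE over placebo, so a rise against it is not particular to miR-26b.

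Other miRNAs whose profile over the 6 samples lay nearest to each member were found by the root mean square (RMS) difference of log2 values, each profile centred on its own mean. The 5 nearest to miR-26b were miR-350 (RMS 0.0885 log2 units), miR-23a (0.0944), miR-532-5p (0.111), miR-29a (0.111) and miR-146a (0.115), against a median of 0.305 over 94 miRNAs. miR-350 read 277 and 271 normalized counts with EE, 321 and 272 with E2, and 370 and 365 with placebo. miR-23a read 508 and 509 with EE, 644 and 575 with E2, and 803 and 758 with placebo. miR-532-5p read 102 and 112 with EE, 144 and 110 with E2, and 155 and 142 with placebo. miR-23a had the order of miR-26b without overlap, lowest with EE and highest with placebo, while EE and E2 overlapped for miR-350 and miR-532-5p. In all 3 of these E2 sample 1 was the higher E2 sample. Neighbours of either member were picked on these same 6 samples, so an order shared with the member follows in part from the choice. The 5 nearest to miR-26a were miR-423-5p (RMS 0.106), let-7f (0.136), miR-2146 (0.138), let-7c (0.139) and miR-30e (0.146), against a median of 0.306. miR-423-5p read 89 and 113 normalized counts with EE, 76 and 104 with E2, and 90 and 121 with placebo, so that, as for miR-26a, sample 2 was the higher in each group. The members were not near neighbours of each other: at an RMS of 0.261, miR-26b ranked 36th of 94 from miR-26a and miR-26a ranked 40th from miR-26b.

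Since MYC lowers miR-26 in lymphoma cells, other miRNAs known to be repressed by MYC were read beside it. Of 18 on this list 16 were above the floor, with miR-34a and miR-195 under it. With EE 3 of 16 were called lower, 1 was called higher and 12 were not called, against 15.8% called lower and 10.5% called higher over all 95 miRNAs. The log2 fold change was below 0 for 13 of the 16, and for 56 of all 95. The list's median log2 fold change was -0.23, against -0.11 over all 95. miR-150, a lymphocyte miRNA that restrains Myb, was at 15277 and 14140 normalized counts with EE and 44123 and 35124 with placebo (log2 fold change -1.42 ± 0.11 SE, limma adjusted p 1.18e-05). let-7g, of the growth-restraining let-7 family, was at 5958 and 5795 with EE and 9936 and 8863 with placebo (-0.68 ± 0.13 SE, limma adjusted p 0.00313). miR-30c was at 846 and 754 with EE and 1340 and 1129 with placebo (-0.62 ± 0.17 SE, limma adjusted p 0.0222). miR-15a, which represses Bcl2 in human leukaemia cells, went against the others of the list that were called, at 1759 and 1444 with EE and 1223 and 962 with placebo (0.55 ± 0.18 SE, limma adjusted p 0.0433). Of 20 other settings the call held in 19 for miR-150, 14 for let-7g, 12 for miR-30c and 7 for miR-15a.

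With E2, miR-150 alone of these 16 was called, at 24211 and 22678 normalized counts with E2 and 44123 and 35124 with placebo (limma adjusted p 9.53e-04, a call that held in 16 of 20 other settings). The share called lower over all 95 was 6.32%. The list's median log2 fold change with E2 was -0.22, against -0.20 over all 95. miR-150 was also the one call of the list for EE over E2 (limma adjusted p 0.0117, a call that held in 12 of 20 other settings), where the share called lower was 4.21% and the list's median was -0.025, against 0.031 over all 95. miR-150 stands in the lymphoid list as well. The list's median turned positive for E2 over placebo with ligation controls, for EE over placebo with scaling to all mouse miRNA counts, and in 5 of 20 settings for EE over E2.

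**Figure D4:**
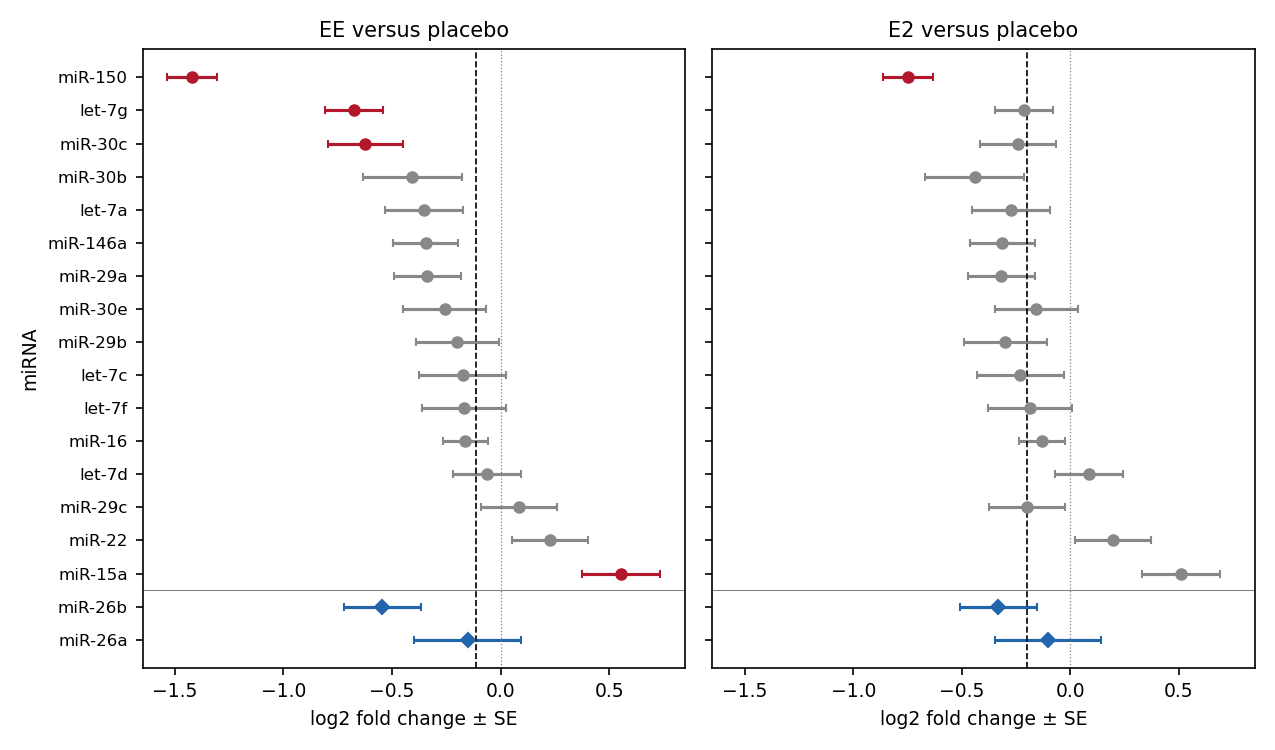
Log2 fold change ± SE of the 16 tested miRNAs known to be repressed by MYC (circles, red where called by limma at the threshold, grey where not) and of both miR-26 members (diamonds), for EE over placebo on the left and E2 over placebo on the right, with a dashed line at the median of all 95 tested miRNAs. With EE, miR-26b at -0.545 lies between miR-30c (-0.62) and miR-30b (-0.41), and miR-26a lies near the median.

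miRNAs that MYC induces, those of the miR-17-92 cluster, had 4 of 6 probes above the floor, with miR-18a and miR-92a under it, and 0 of 4 were called in any contrast (limma, with 35, 20 and 18 of the 95 at an unadjusted p under 0.05 for EE over placebo, E2 over placebo and EE over E2). With all mouse miRNA counts as the scale, 3 of 4 were called higher for EE over placebo, against 20 of all 95. For E2 over placebo 2 of 4 were, against 12 of all 95. With miR-150 left out of that total, 12 of all 95 and 1 of these 4 were called higher for EE. With EE over placebo their log2 fold changes were 0.45 for miR-19a, 0.42 for the joint probe of miR-106a and miR-17, 0.32 for miR-19b and 0.12 for the joint probe of miR-20a and miR-20b. With E2 over placebo they were 0.23, 0.33, 0.057 and 0.33 in the same order, and with EE over E2 they were 0.22, 0.081, 0.26 and -0.22. The median of the 4 was 0.37 for EE and 0.28 for E2 over placebo, against -0.11 and -0.20 over all 95. This list median was positive in all 20 other settings, though the filter, the variance model and the group outside the contrast cannot move it. Among other miRNAs known to target Ezh2, only miR-101b of 4 probes was above the floor. It read 73 and 76 normalized counts with EE, 58 and 62 with E2, and 60 and 63 with placebo, and it was not called in any contrast. Like miR-26a it was close to background, as the highest negative control of placebo sample 1 read 58. miR-101a, miR-138 and miR-214 were under the floor.

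**Figure D5:**
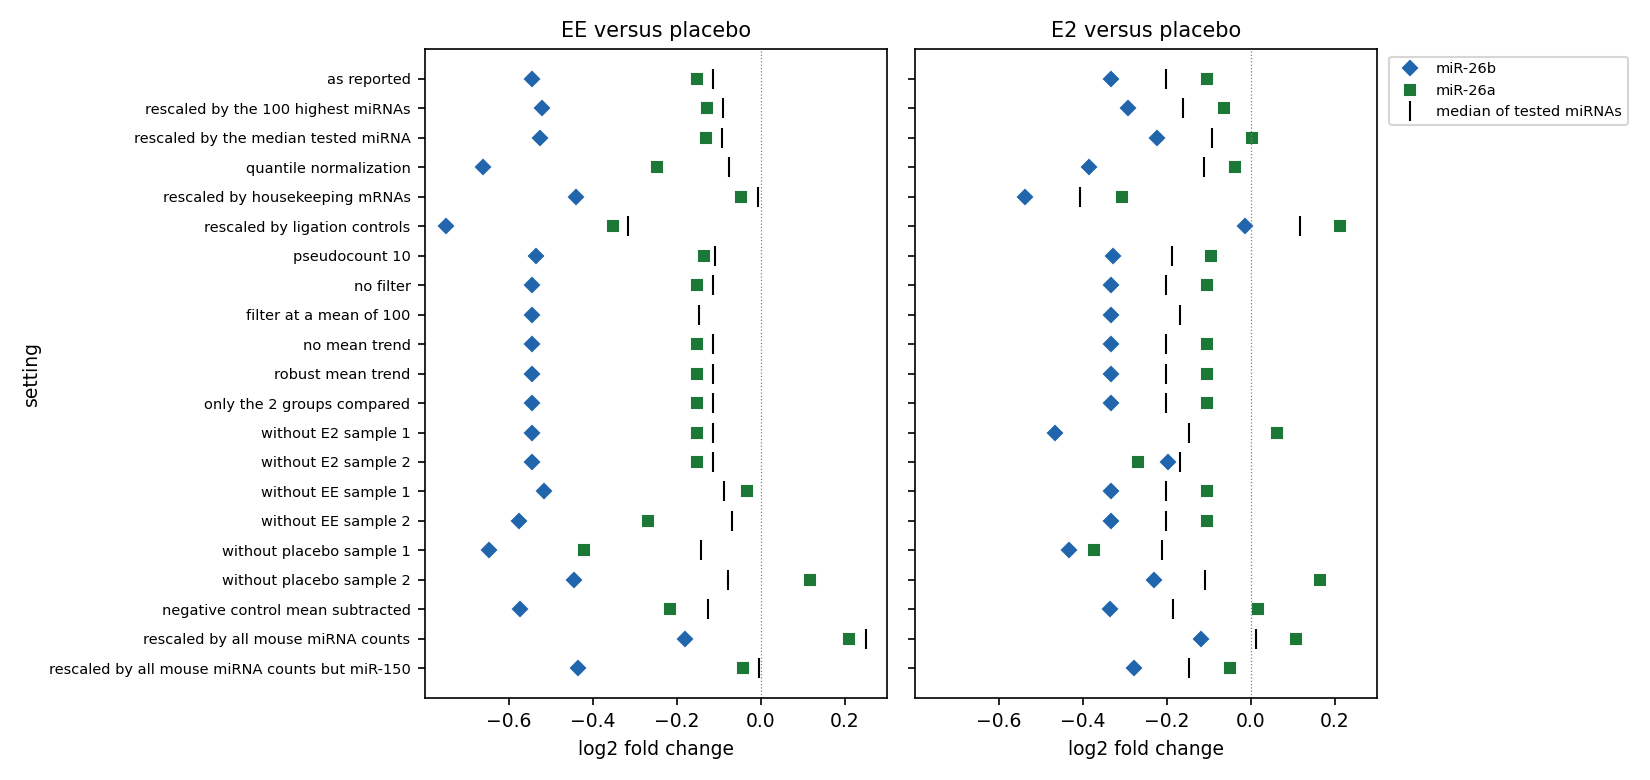
Log2 fold change of miR-26b (diamonds), miR-26a (squares) and the median of the tested miRNAs (black ticks) over placebo, for EE on the left and E2 on the right, as reported (top) and in 20 other settings (rows). miR-26b with EE lies below 0 in every row, from -0.75 with ligation controls to -0.18 with all mouse miRNA counts, and miR-26a lies on either side of 0, with no value where a mean of 100 was asked. For miR-26b, rows that change only the filter, the variance model or the group outside the contrast repeat the value as reported.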

How the data were processed

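The table deposited by the authors holds whole-number scores, read here as normalized nCounter counts. The assay, version 1.5 of the mouse miRNA panel, was run by its manufacturer on total RNA, per the labels. How they were normalized is not stated. The geometric mean of the 100 highest miRNAs ran from 287.6 to 297.8 across samples, so the scores were taken as rescaled, and no count model was fitted. Counting intervals were not computed, since the raw depth is unknown.

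The fit was limma (version 3.58.1, R 4.3.3), lmFit with trended eBayes, on log2(value + 1), with all 6 samples and 3 groups. Tests were two-sided, with Benjamini-Hochberg adjustment over 95 miRNAs. The standard errors of fold changes and the p-values are moderated, so they also draw on the spread of other miRNAs in these samples. An exact permutation test of 2 against 2 samples cannot go below p = 0.333, so none was run. Groups came from the treatment label, and sample numbers are only names. The fit was checked on simulated data.

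The members and lists were chosen with earlier results of these data known. List members past the threshold were named, or else up to 4 with the smallest p, with every marker, and the 5 nearest profiles per member. Both members matched RefSeq mature miRNAs, by their name with -5p added. Scaling, filter, pseudocount, variance model and left-out samples were varied.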

Additional observations from a re-analysis of the deposited data

How the results depend on the processing

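Limits are sample number, unknown depth and, for miR-26a, signal near the negative controls. Background subtraction and scaling to all mouse miRNA counts, with or without miR-150, were chosen after seeing the data.

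Settings that change only the filter, the variance model or the E2 samples cannot alter the log2 fold change of miR-26b with EE over placebo. It was below 0 in all 20 settings, at -0.75 with ligation controls and -0.18 with all mouse miRNA counts. With an EE or placebo sample left out it ran from -0.65 to -0.44. Its call held in 6: a pseudocount of 10, a filter at 100, no mean trend, a robust trend, background subtraction, and without placebo sample 1. The cause was not tested. With E2 over placebo it was -0.54 with housekeeping mRNAs, -0.013 with ligation controls and -0.12 with all mouse miRNA counts. For EE over E2 it was 0.097, -0.74 and -0.062 in these settings. Both stayed below 0 with any sample left out. miR-26a was at 0.21 for E2 over placebo with ligation controls, at 0.21 for EE over placebo with all mouse miRNA counts, and for EE over E2 at 0.26 with housekeeping mRNAs and -0.56 with ligation controls. With a sample left out it ran from -0.42 to 0.12 for EE over placebo, -0.37 to 0.17 for E2 over placebo and -0.21 to 0.12 for EE over E2. miR-26a was never called in its 19 settings.

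The 25 calls for EE over placebo (10 higher, 15 lower) became 15 with median rescaling, 16 with housekeeping mRNAs, 11 with ligation controls (3 higher, 8 lower), 14 without the filter and 16 with a filter at 100. They ran from 15 (without EE sample 2) to 23 with a sample left out. Scaling to all mouse miRNA counts gave 20 higher and 6 lower. The 10 calls for E2 over placebo (4 higher, 6 lower) became 4 with median rescaling or ligation controls (all higher) and 5 without the filter, and ran from 6 (without E2 sample 1) to 12. All mouse miRNA counts gave 12 higher and 3 lower, quantile normalization 7 and 5, and leaving miR-150 out of the total 7 and 5. The 7 calls for EE over E2 (3 higher, 4 lower) became 0 with median rescaling and without the filter (limma, 15 and 37 at an unadjusted p under 0.05), 3 with ligation controls (all lower), 1 with a filter at 100 and 12 with only the 2 groups compared. Housekeeping mRNAs gave 5 higher and 0 lower, quantile normalization 4 and 2, and both totals 4 and 3. With a sample left out they were 0 without E2 sample 1 (10 at an unadjusted p under 0.05), 1 without E2 sample 2, 4 without either EE sample and 12 without either placebo sample. A group left with 1 sample was assumed to vary like the others.

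No paired analysis was possible because sample numbers of different groups share no label.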
